A study of Mus musculus with 3 samples.

Results

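The genes described here are 10 genes used to follow the passage of epithelial cells towards a mesenchymal state: the epithelial adhesion genes Epcam and Cdh1, the mesenchymal or mixed markers Cdh2, Vim and Pdpn, and the transcription factors Zeb1, Zeb2, Snai2, Twist1 and Twist2. They were picked by symbol, as 10 of the 32293 features of the deposited single-cell matrices, and each symbol matched 1 feature. Their levels were read in 5 classes of cell barcodes set by single gate genes, each counted in unique molecular identifiers (UMIs). Thymic epithelial cells (TEC) had at least 2 Epcam UMIs, fibroblasts (FB) at least 2 of Pdgfra, mesothelial cells at least 2 of Upk3b and endothelial cells (EC) at least 2 of Pecam1. The last class, called Spp1-high, had at least 5 UMIs of Spp1, the gene of the secreted matrix protein osteopontin, at most 1 of Epcam and 0 of Ptprc, the pan-hematopoietic gene that encodes CD45. Barcodes that met more than 1 gate were dropped. The gates used Epcam, so its levels are given as a description and the other 9 members are the ones tested. Barcodes of every other class held at most 1 Epcam UMI. Lower levels of other epithelial genes there, Cdh1 included, may follow in part from the gates, and that part was not tested.

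The cells were nonhematopoietic (CD45-) stromal cells from the thymus of untreated C57BL/6 mice aged 20 months, profiled by droplet single-cell RNA sequencing. There were 3 libraries, each the sole library of its group (n = 1 per group): Foxn1Lin female, Foxn1Lin male and wild-type male. Foxn1Lin mice carried a Foxn1 lineage trace, in which a Cre recombinase made where Foxn1 is active turns on a tdTomato reporter in that cell and in its descendants, so the reporter tells of past and not only of present Foxn1 activity. The wild-type library carried no reporter, and 0 reporter UMIs were counted in its 5 classes. Per the labels, thymi of several mice were pooled for a library, the protocol text speaks of female mice for all libraries although 2 are labelled male, and the cell type field of the wild-type library names PECAM1+ cells while its title does not. In that library the EC gate held 886 barcodes and the TEC gate 1056, so Pecam1-negative cells were present. Genotype, sex, pool and sequencing run cannot be told apart between the 3 libraries, and no test was made between them. Values of the libraries are given below in the order Foxn1Lin female, Foxn1Lin male and wild type.

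Epithelial cells hold to their neighbours through E-cadherin and EpCAM and are shaped by keratins, whereas mesenchymal cells rest on vimentin and secrete fibrillar matrix. In the transition between both states, factors of the ZEB, SNAIL and TWIST families repress epithelial genes, E-cadherin above all, and mesenchymal genes come on. In the thymus the epithelium forms the cortical and medullary meshwork that selects T cells, and fibroblasts, mesothelium and endothelium make up the rest of the stroma. Zeb1, Zeb2 and Snai2 belong to zinc finger families that bind the E-box sequence CACCTG, so the sequence before the start of Epcam is shown with those of Vim, Pdpn and Zeb2, chosen for their levels among the 6 members whose RefSeq promoters on GRCm38.p6 were used here. Those of Cdh1, Cdh2, Zeb1 and Snai2 were not used here. Each line gives the 250 bases before the start annotated by RefSeq, 5′ to 3′ on the strand of the gene, with CACCTG or its reverse complement CAGGTG in capitals.
Epcam (chr17:87635729-87635978, plus strand): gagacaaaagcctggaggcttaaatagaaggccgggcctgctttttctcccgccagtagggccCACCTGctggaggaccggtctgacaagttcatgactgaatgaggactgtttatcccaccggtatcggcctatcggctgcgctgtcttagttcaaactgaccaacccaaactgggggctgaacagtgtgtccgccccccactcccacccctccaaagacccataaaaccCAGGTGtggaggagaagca
Vim (chr2:13574061-13574310, plus strand): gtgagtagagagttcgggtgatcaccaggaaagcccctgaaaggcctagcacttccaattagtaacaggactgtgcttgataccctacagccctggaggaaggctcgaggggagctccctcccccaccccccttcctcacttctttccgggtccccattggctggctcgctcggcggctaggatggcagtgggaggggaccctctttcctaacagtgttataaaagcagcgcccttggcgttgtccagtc
Pdpn (chr4:143299565-143299814, minus strand): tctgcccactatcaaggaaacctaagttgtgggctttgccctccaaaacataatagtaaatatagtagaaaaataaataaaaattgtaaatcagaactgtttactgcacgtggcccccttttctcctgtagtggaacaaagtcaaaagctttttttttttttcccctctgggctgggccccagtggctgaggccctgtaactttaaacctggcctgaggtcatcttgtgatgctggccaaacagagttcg
Zeb2 (chr2:45117443-45117692, minus strand): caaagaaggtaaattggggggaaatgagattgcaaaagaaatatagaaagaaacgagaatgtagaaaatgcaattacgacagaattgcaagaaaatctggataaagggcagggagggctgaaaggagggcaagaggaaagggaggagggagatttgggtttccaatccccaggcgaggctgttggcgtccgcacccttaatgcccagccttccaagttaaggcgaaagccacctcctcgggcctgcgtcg
The RefSeq start of Vim lies downstream of the start of the GENCODE gene given below, so its stretch falls within that gene, and the RefSeq start of Zeb2 lies just upstream of the GENCODE one. The Epcam stretch held 2 matches, whose first bases lay at -187 and -19 from the start. No match was found in the windows before the annotated starts of Vim, Pdpn, Zeb2 (4 starts, of which the most upstream is printed), Twist1 and Twist2. Of 32851 mouse promoter windows of the same length, 5657 (17.2%) held the motif. A match shows only that these letters are present.

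The libraries held 8616, 3583 and 5478 called barcodes with a median of 4675, 7431 and 7947 UMIs each, and 8478, 3434 and 5256 were kept after low-quality barcodes were removed. TEC were 514, 482 and 1056 barcodes, FB 1862, 874 and 1732, EC 2141, 857 and 886, mesothelial cells 345, 0 and 39, and Spp1-high 13, 34 and 36 (83 in all). Deeper libraries and larger classes bind their values more tightly: the Spp1-high sums rest on 76393, 321099 and 330403 UMIs, against 7564402 or more for TEC. Pairs of libraries shared 3 to 14 barcodes, at most 0.256% of the smaller library for the pair of Foxn1Lin female and wild type. RNA outside called barcodes was 26.5%, 12.9% and 9.46% of all UMIs and held every member, for example Vim at 667, 956 and 368 counts per 1000000 (CPM) and Cdh1 at 61.5, 141 and 258 CPM.

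The gates were read against marker lists of the cell types, each of which holds its own gate gene, so that part of each sum was set by the gate. TEC barcodes carried 7177 to 9263 CPM summed over 9 TEC markers, FB 15038 to 17390 CPM over 8 FB markers, EC 6760 to 7733 CPM over 8 EC markers and mesothelial cells 4571 to 4734 CPM over 6 mesothelial markers. Of these sums the gate gene made up 638 to 1416 CPM in TEC (Epcam), 590 to 706 CPM in FB (Pdgfra), 1323 to 1851 CPM in EC (Pecam1) and 1379 to 1804 CPM in mesothelial cells (Upk3b). The Epcam gate also held parathyroid cells, seen as 6, 3 and 1 TEC barcodes with at least 20 UMIs of Pth, the parathyroid hormone gene, and those held 95.8% to 99.8% of the Pth UMIs of TEC. Without these barcodes, an alternative chosen after seeing the data, the counts of members called were the same in 4 of the 5 comparisons, and in EC against TEC Twist1 passed as well, which made 6 in place of 5. Spp1-high barcodes had no UMI of Krt5, Krt19 or Foxn1 in any library and 367, 850 and 802 CPM over the TEC list. That sum held 28, 273 and 265 UMIs, of which Krt8 and Krt18 gave 24 and 25 over all libraries together. Their ratios to the TEC level were 0.019 and 0.0179, and most of the sum over the libraries was the MHC class II gene H2-Aa. Spp1-high barcodes carried 3544 to 4700 CPM over the FB list, below FB and above TEC (246 to 420 CPM). Dcn, a matrix proteoglycan gene, gave 899 of the 1138 UMIs of this list in Foxn1Lin male and at least 214 of 292 in Foxn1Lin female. Over the libraries Col1a1, Col1a2 and Col3a1 stood at 0.172, 0.129 and 0.574 of the FB level. The 7 markers of smooth muscle cells and pericytes (vSMC/PC) summed to 1081 to 1728 CPM in Spp1-high, against 181 to 277 CPM in FB and 279 to 426 CPM in TEC. Of 10 hematopoietic markers, of which the gate set Ptprc to 0, 2 to 3 were detected in Spp1-high, at 6.23 to 133 CPM in sum, and of 6 mesothelial markers 0 to 1. The TEC list stayed below its level in TEC and the FB list below its level in FB, where the gates held Epcam and Pdgfra to at most 1 UMI a barcode, and the barcodes are called by their gate throughout. In the Foxn1Lin libraries 11 of 13 and 34 of 34 Spp1-high barcodes had a reporter UMI. After random thinning of every barcode to 2000 UMIs, which makes depths equal, the shares were 84.6% (95% Clopper-Pearson interval 54.6 to 98.1) and 90.9% (75.7 to 98.1), against 64.9% and 76.9% in TEC, 4.75% and 4.13% in FB and 9.39% and 8.29% in EC, types that should lack the reporter.

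Cdh1 (chromosome 8, 106603351 to 106670246 on GRCm38, plus strand) encodes E-cadherin, the adhesion molecule of epithelial junctions. It was read at 471, 663 and 741 CPM in TEC, that is, UMIs of the gene per 1000000 UMIs summed over the class in a library. In Spp1-high it rested on 1, 0 and 1 UMIs (13.1, 0 and 3.03 CPM). FB had 3.68, 0.911 and 4.12 CPM, EC 10.7, 1.94 and 8.66 CPM, and mesothelial cells 5.10 and 6.03 CPM in the 2 libraries that held them. TEC stood above every other class in each library, and the other 4 classes lay at 13.1 CPM or below. In thinned TEC 52.3%, 61.2% and 63.2% of barcodes had a Cdh1 UMI, against 0.459% to 0.819% of FB and 0 of 13, 0 of 33 and 0 of 36 Spp1-high barcodes, which allows shares of up to 23.1%, 9.09% and 8.33%. At the TEC level of each library 494 Cdh1 UMIs would fall on the Spp1-high barcodes. The 2 observed are a ratio of 0.00405 (95% Poisson interval 0.000491 to 0.0146). Intervals and limits of this kind cover counting error only, since they do not hold the spread between mice.

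Epcam (chromosome 17, 87635979 to 87651129, plus strand) encodes an epithelial cell adhesion molecule and had 638, 1416 and 827 CPM in TEC, the class it gates. It was at 3.26 to 5.66 CPM in FB and EC. In Spp1-high it was at 0, 0 and 6.05 CPM, where the gate allowed 1 UMI a barcode. Barcodes in no class, among them those with 1 Epcam UMI, had 14.2 to 21.8 CPM.

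Vim (chromosome 2, 13573927 to 13582826, plus strand) encodes vimentin, the intermediate filament of mesenchymal cells. TEC had 125, 151 and 82.5 CPM, Spp1-high 785, 993 and 799 CPM, FB 1857, 1785 and 871 CPM, mesothelial cells 1402 and 1486 CPM, and EC 712, 998 and 715 CPM. TEC were lowest in every library, and Spp1-high and EC did not separate. FB exceeded Spp1-high in both Foxn1Lin libraries, whereas in the wild type the ratio of Spp1-high to FB was 0.918 (95% interval 0.809 to 1.04 from the counts). Thinned barcodes with a Vim UMI were 9.77% to 17.4% of TEC, 61.5% to 75.8% of Spp1-high and 68.7% to 87.8% of FB.

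Pdpn (chromosome 4, 143267431 to 143299564, minus strand) encodes podoplanin, a membrane glycoprotein found on thymic epithelium, fibroblasts and lymphatic vessels. It was at 105, 184 and 202 CPM in TEC, 367, 414 and 424 CPM in Spp1-high, 485, 448 and 494 CPM in FB, 469 and 444 CPM in mesothelial cells and 24.8, 3.63 and 4.64 CPM in EC. Spp1-high, FB and mesothelial cells formed 1 band above TEC, and EC stood below TEC in each library.

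Cdh2 (chromosome 18, 16588877 to 16809246, minus strand) encodes N-cadherin, the cadherin that replaces E-cadherin in many mesenchymal cells. Levels in TEC were 20.0, 35.3 and 35.8 CPM and in FB 20.4, 35.1 and 32.1 CPM, so both classes overlapped and both were lowest in Foxn1Lin female. EC had 16.2, 12.2 and 19.7 CPM and mesothelial cells 7.13 and 16.1 CPM. Spp1-high held 0, 2 and 0 Cdh2 UMIs, against 24.7 expected at the TEC level and 23.4 at the FB level, ratios of 0.0810 (95% Poisson interval 0.00981 to 0.293) and 0.0854 (0.0103 to 0.308). Barcodes in no class had the most, 35.3, 43.4 and 55.9 CPM.

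**Figure D1:**
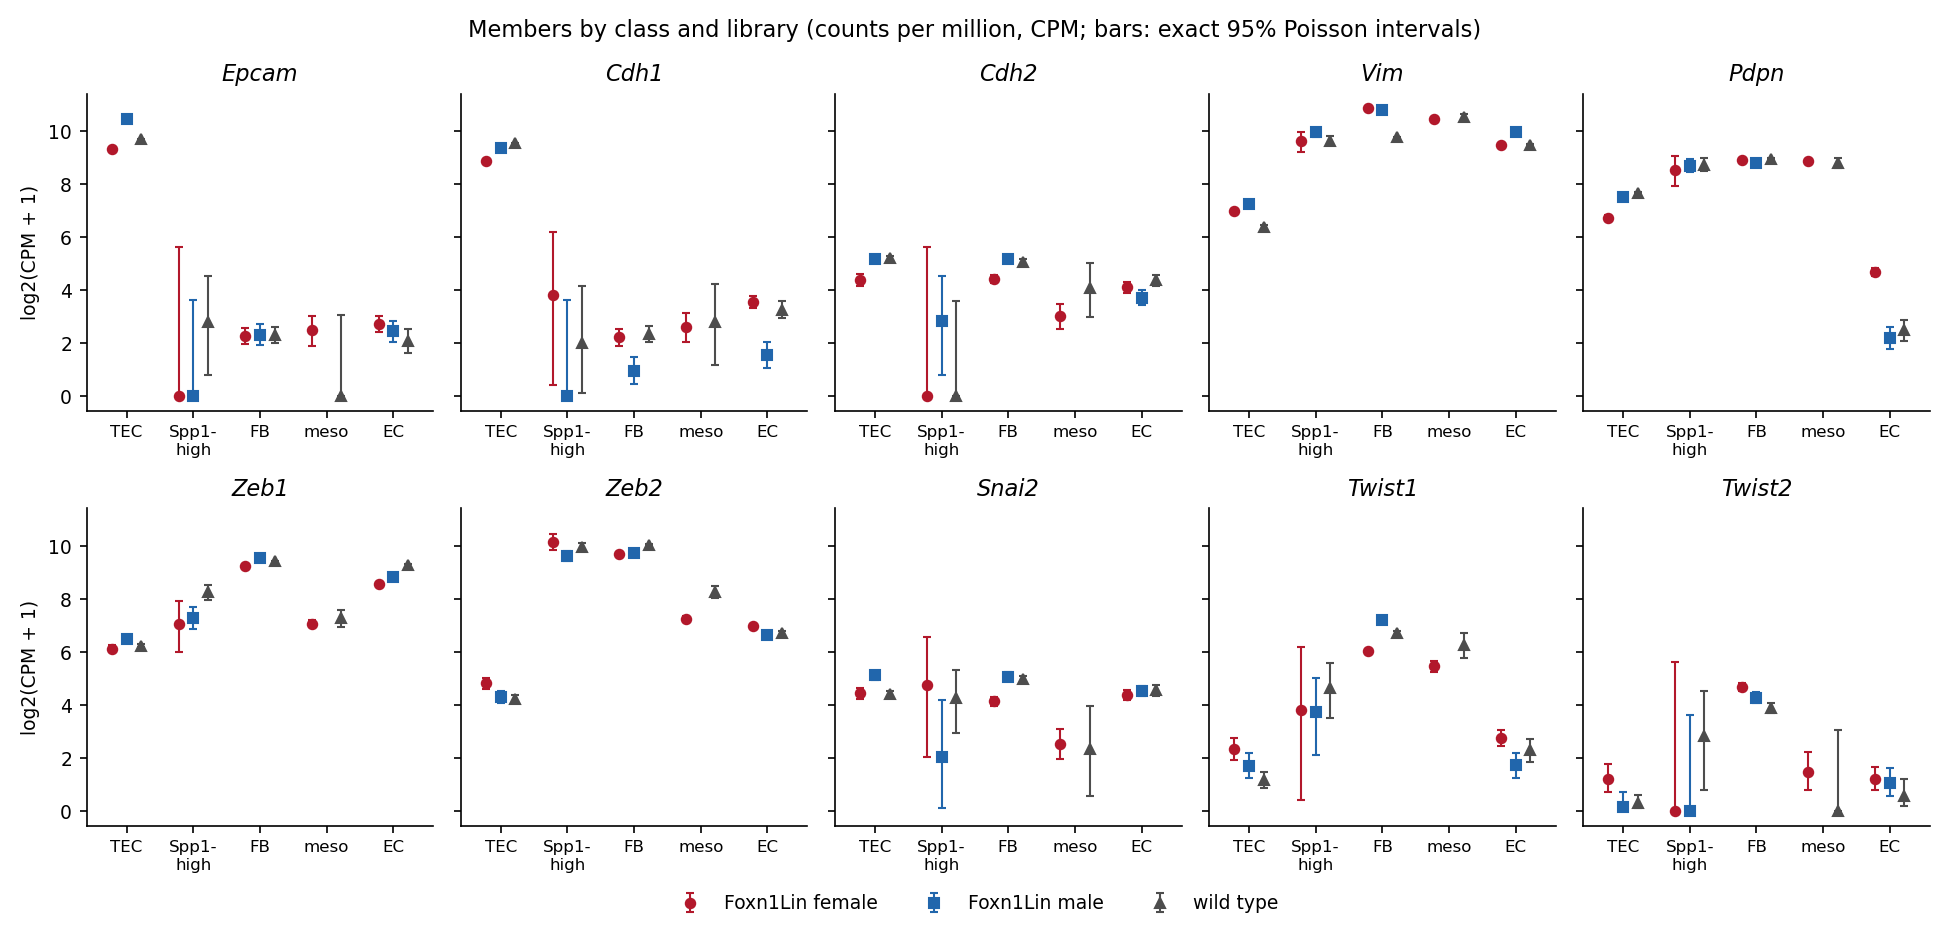
Level of each member by class and library, as log2(CPM + 1) of the summed UMIs, with the 3 libraries as separate points and exact 95% Poisson intervals as bars. Cdh1 stands high in TEC alone (471 to 741 CPM), Zeb2 in Spp1-high and FB (791 to 1139 CPM), and Cdh2 and Snai2 stay low in every class.

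Zeb2 (chromosome 2, 44983632 to 45117395, minus strand), a zinc finger repressor of E-cadherin, separated TEC from FB in every library. TEC had 27.2, 18.8 and 17.9 CPM, Spp1-high 1139, 791 and 1008 CPM and FB 826, 861 and 1059 CPM. Mesothelial cells lay between with 150 and 306 CPM and EC with 125, 98.2 and 104 CPM. Spp1-high and FB overlapped and stood above mesothelial cells and EC in every library, and TEC stood below all. Barcodes in no class, in which the vSMC/PC list was highest, had 597, 827 and 1031 CPM. In thinned barcodes 69.2%, 75.8% and 72.2% of Spp1-high had a Zeb2 UMI, against 72.3%, 72.6% and 78.4% of FB and 6.59%, 2.37% and 2.90% of TEC.

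Zeb1 (chromosome 18, 5591860 to 5775467, plus strand), its close relative, had another order. FB led with 606, 752 and 687 CPM, followed by EC with 382, 455 and 615 CPM, then Spp1-high with 131, 156 and 303 CPM, mesothelial cells with 134 and 155 CPM, and TEC with 69.3, 89.2 and 74.8 CPM. The order FB, EC, Spp1-high, TEC held in each library, and mesothelial cells and Spp1-high were not separated in the Foxn1Lin female library, where Spp1-high rested on 10 UMIs. Zeb1 and Zeb2 thus ranked the same classes differently, EC standing next to FB for Zeb1 and below Spp1-high, FB and mesothelial cells for Zeb2.

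Snai2 (chromosome 16, 14705852 to 14709385, plus strand) encodes the repressor SLUG. It stayed low, at 20.8, 34.1 and 20.3 CPM in TEC, 16.7, 32.8 and 30.3 CPM in FB and 20.0, 22.2 and 22.6 CPM in EC. Mesothelial cells were lower with 4.84 and 4.02 CPM. Spp1-high had 2, 1 and 6 UMIs (26.2, 3.11 and 18.2 CPM). The ranges of TEC, FB and EC overlapped.

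Twist1 (chromosome 12, 33957671 to 33959829, plus strand) and Twist2 (chromosome 1, 91801461 to 91848028, plus strand) encode helix-loop-helix factors of mesoderm. Twist1 had 64.1, 147 and 105 CPM in FB and 43.1 and 76.4 CPM in mesothelial cells, while TEC stood at 4.10, 2.29 and 1.25 CPM and EC at 5.74, 2.30 and 3.89 CPM. In Spp1-high 1, 4 and 8 Twist1 UMIs gave 13.1, 12.5 and 24.2 CPM, above TEC and below FB in each library. Twist2 was read at 24.6, 18.4 and 13.8 CPM in FB and below 2 CPM in TEC, mesothelial cells and EC, and Spp1-high held 0, 0 and 2 UMIs. At the FB level 12.4 Twist2 UMIs would have been counted in Spp1-high, which gives a ratio of 0.162 (95% Poisson interval 0.0196 to 0.585).

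Whether Spp1-high barcodes differ from TEC in these genes was tested on UMIs summed per class and library, with the library as a block, by the quasi-likelihood test of edgeR and p adjusted by Benjamini-Hochberg over 17957 genes. All 10 members passed the filter on low counts. Vim rose by 2.90 ± 0.26 (log2 fold change ± SE, 3 libraries, adjusted p = 2.45e-05), Zeb2 by 5.50 ± 0.28 (5.98e-07), Zeb1 by 1.36 ± 0.27 (0.00464) and Twist1 by 2.97 ± 0.92 (0.0429), each higher in 3 of 3 libraries. In Foxn1Lin female alone, Zeb1 (ratio 1.89, 95% interval 0.901 to 3.5 from 10 UMIs) and Twist1 (3.19, 0.0784 to 19.2 from 1 UMI) did not exceed counting error. Cdh1 fell (0.000114) and Cdh2 fell (0.00493), both from sums of 2 UMIs, so the counted ratios above stand in for their folds. The gates ask for Epcam in TEC and cap it in Spp1-high, and their part in the fall of Cdh1 was not tested. Of the 9 members, 4 were higher in Spp1-high where 6.76% of all genes were, and 2 were lower where 12.3% of all genes were. The median gene lay at -0.56, at -0.42 with RLE scaling and at -0.23 in DESeq2, and the share of called genes that were higher was 35.5%, 45.4% and 49.8% in these fits, so the changes are to be read relative to that shift.

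Pdpn gave 1.31 ± 0.53 (adjusted p = 0.108), Snai2 -1.01 ± 0.54 (0.215) and Twist2 an adjusted p of 0.227 in the same edgeR test, Twist2 from 2 UMIs against 0.222 expected at the TEC level (ratio 9.0, 95% Poisson interval 1.09 to 32.5). These did not pass. The interval of 2 SE on either side ran from 0.25 to 2.37 for Pdpn and from -2.09 to 0.07 for Snai2. Without the Foxn1Lin female library Pdpn passed as well. Cdh1, Vim and Zeb2 kept the call in all 13 alternatives. Twist1 lost it in 6 of them, with log2 fold changes of 2.31 to 3.52 and an edgeR adjusted p of 0.402 at most. Zeb1 and Cdh2 lost it in 2 each. Without the wild-type library Zeb1 was at 1.14 (0.0543) and Cdh2 at -2.26 (0.22), and after thinning they were at 0.78 (0.205) and -8.42 (0.0528).

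Against FB, Spp1-high was lower in 4 members and higher in none of 9, where 4.21% of all genes were lower and 3.8% higher. Zeb1 fell by 1.89 ± 0.27 on the log2 scale (adjusted p = 0.00116), Twist1 by 2.63 ± 0.65 (0.0311) and Vim by 0.87 ± 0.24 (0.046), and Cdh2 fell (0.0082) from the 2 UMIs given above. Zeb2 gave -0.04 ± 0.23 (0.951) and Pdpn -0.30 ± 0.52 (0.831), with intervals of 2 SE from -0.51 to 0.43 and from -1.34 to 0.75. Cdh1 had an adjusted p of 1 from 2 UMIs against 1.93 expected at the FB level, a ratio of 1.03 (0.125 to 3.74). Snai2 gave -1.20 ± 0.53 (0.223), and Twist2 had an adjusted p of 0.109 from the 2 UMIs above. The median gene lay at -0.34 in edgeR, at -0.20 with RLE scaling and at 0.12 in DESeq2, and 47.5%, 59.7% and 65.1% of called genes were higher in Spp1-high. The sign of Zeb2 and of Cdh1 turned with the scaling. The Twist1 call was lost in 4 alternatives, with an adjusted p of 0.248 at most. The Vim call was lost in 6 alternatives, RLE scaling (-0.72, 0.109) and the fit without Foxn1Lin female (-0.57, 0.146) among them, and only 1 member was left past the threshold without Foxn1Lin male (Cdh2) or without wild type (Zeb1).

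**Figure D2:**
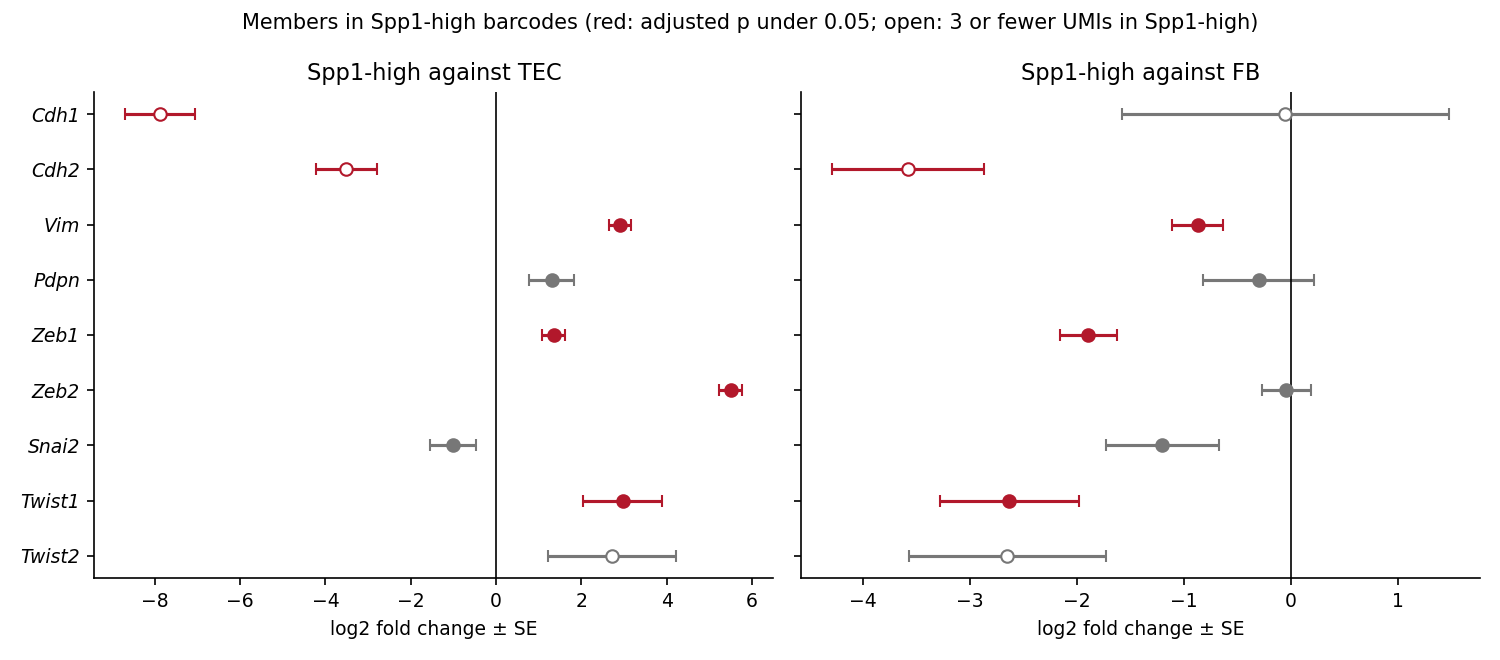
Log2 fold change (points) and SE (bars) of 9 members in Spp1-high against TEC (left) and against FB (right) over 3 libraries, red where the adjusted p of edgeR is under 0.05 and open where Spp1-high held 3 or fewer UMIs in all. Zeb2 lies at 5.50 against TEC and at -0.04 against FB, and Zeb1 at 1.36 and -1.89.

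In each library Vim, Pdpn, Zeb1 and Twist1 had a Spp1-high level between those of TEC and FB as point values. The step below FB did not exceed counting error for Pdpn in any library (ratios 0.756, 0.925 and 0.858). Nor did it for Vim in the wild type or for Twist1 in Foxn1Lin female. The step above TEC did not for Zeb1 and Twist1 in Foxn1Lin female. Among the 7267 genes of at least 20 CPM on average compared in the same way, 669 (9.21%) lay between in each library, and no test was made of this count. Zeb2 did not, since in Foxn1Lin female its Spp1-high level exceeded FB by a ratio of 1.38 (95% interval 1.10 to 1.70 from the counts), while the ratios were 0.919 (0.808 to 1.04) and 0.952 (0.851 to 1.06) in the others.

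Further genes of the transition were read from 3 lists. Of 22 epithelial genes, 16 were lower in Spp1-high than in TEC and 0 higher, with a median of -5.58 on the log2 scale (-4.40 with the 6 genes at 0 UMIs in Spp1-high set to their limit of 3 UMIs), against -0.56 for all genes. Krt5, a basal keratin, had 0 UMIs in Spp1-high, at least 90.0-fold lower than the TEC level, Lamb3, a laminin chain of the epithelial basement membrane, at least 11.3-fold and Ovol1, a regulator of epithelial identity, at least 3.17-fold. The limit of these folds is 3 UMIs over the class. Cldn7, a tight junction claudin, had 1 UMI where 125 were expected, a ratio of 0.00797 (0.000202 to 0.0444). The 16 lower genes stand beside 12.3% of all genes lower, and they became 5 without the wild-type library (median -5.89). Since Epcam was asked for in TEC and capped in Spp1-high, genes that run with it were in part selected by the gates.

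Of 24 mesenchymal genes, 15 were higher in Spp1-high than in TEC and 0 lower, with a median of 2.57, where 6.76% of all genes were higher. The 15 became 9 without the wild-type library (median 2.47). Col3a1, a fibrillar collagen, rose by 5.13 ± 0.71 (edgeR adjusted p = 0.000672), Fbn1, the microfibril protein fibrillin, by 5.06 ± 0.32 (2.39e-06), Postn, the matrix protein periostin, by 4.04 ± 0.86 (0.00731) and Col1a2 by 4.01 ± 0.53 (0.000534). Of 18 further regulators tested of 19, 8 were higher and 1 lower, with a median of 0.91. The 8 became 3 after thinning (median 0.42), and the 1 lower gene, Id2, was lost without Foxn1Lin male, without wild type and without the library block. Prrx1, a mesenchymal homeobox factor, rose by 5.14 ± 0.44 (3.10e-05), Snai1, the relative of Snai2, by 4.75 ± 0.55 (0.000158) from 3, 16 and 3 UMIs, Tgfb3 by 2.13 ± 0.64 (0.0378) and Smad3, a mediator of TGFβ signals, by 1.83 ± 0.26 (0.000648). Id2, an inhibitor of helix-loop-helix factors, fell by 1.34 ± 0.27 (0.00491). Snai1 thus moved where Snai2 did not pass, and the difference between them was not tested.

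Against FB, 3 of the 22 epithelial genes were higher in Spp1-high and 0 lower, with a median of 0.90, where 3.8% of all genes were higher. Without the wild-type library 1 was higher (median 0.32), and with Spp1 at least 20 the median was 0.25. They were Ocln, a tight junction protein, with 1, 8 and 13 UMIs (5.12 ± 0.51, edgeR adjusted p = 8.95e-05), Cdh3, which encodes P-cadherin (4.55 ± 0.57, 0.000494), and Dsp, which encodes the desmosome protein desmoplakin (4.28 ± 0.56, 0.000833). Of the mesenchymal genes 8 were lower and 3 higher, with a median of -0.92 against -0.34 for all genes, of which 4.21% were lower and 3.8% higher. The 8 lower became 2 without Foxn1Lin male, 4 without wild type and 5 with no filter on low counts, and the 3 higher became 1 without wild type. Ddr2, a collagen receptor, fell by 5.80 ± 0.53 (7.82e-05), the fibronectin gene Fn1 by 3.79 ± 0.82 (0.0152), Col1a2 by 3.03 ± 0.50 (0.0034) and Mmp2 by 2.97 ± 0.62 (0.0132). The 3 that rose were contractile genes, Tagln by 3.97 ± 0.46 (0.000386), Acta2 by 2.88 ± 0.54 (0.00748) and Tpm1 by 1.19 ± 0.31 (0.0329). Tagln and Acta2 are also on the vSMC/PC list, which stood at 1728, 1302 and 1081 CPM in Spp1-high and at 2934 to 7687 CPM in barcodes of no class, and the part of such cells in the result was not tested. Of the 18 further regulators 3 were higher, Sox9 by 1.92 ± 0.49 (0.0343), Foxc1 by 1.25 ± 0.35 (0.0448) and Sox4 by 0.78 ± 0.20 (0.0338). In the same list 2 were lower, Tgfbr2 by 2.10 ± 0.27 (0.000519) and Id2 by 1.19 ± 0.27 (0.0173). The 3 higher became 0 without wild type, after thinning and with no filter on low counts, and 1 without Foxn1Lin male, with no library block, with raised gates and with Spp1 at least 20. The 2 lower became 1 without Foxn1Lin male, without wild type and with no library block. The median of this list was -0.11 (-0.04 with the gene at 0 UMIs set to its limit) and turned to 0.03 with RLE scaling and 0.06 in DESeq2.

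Single barcodes were then read for pairs of members. After thinning, Cdh1 and Vim were found together in 7.58%, 3.66% and 4.45% of TEC, Cdh1 without Vim in 44.7%, 57.5% and 58.7%, and Vim without Cdh1 in 9.78%, 9.70% and 5.32%. Doublets were kept, and RNA outside barcodes, with Vim at 667, 956 and 368 CPM, was not subtracted. The part of both in these shares was not tested. In Spp1-high 0 barcodes had both and 61.5%, 75.8% and 66.7% had Vim alone. At least 1 of the 5 transcription factors was found in 18.6%, 19.2% and 16.7% of TEC, in 69.2%, 81.8% and 86.1% of Spp1-high and in 90.4%, 92.5% and 94.6% of FB. Among TEC with a Cdh1 UMI the shares were 19.1%, 20.1% and 16.2%. These barcodes were 262 of 501, 284 of 464 and 653 of 1034 thinned TEC, so they cannot be set against all TEC as a separate group. Shares with 2 or more of the factors were 1.08% to 2.20% in TEC, 18.2% to 23.1% in Spp1-high and 53.6% to 62.6% in FB. Twist1 or Twist2 was found in 0 of 13, 1 of 33 and 2 of 36 Spp1-high barcodes and in 16.0%, 25.7% and 20.9% of FB.

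**Figure D3:**
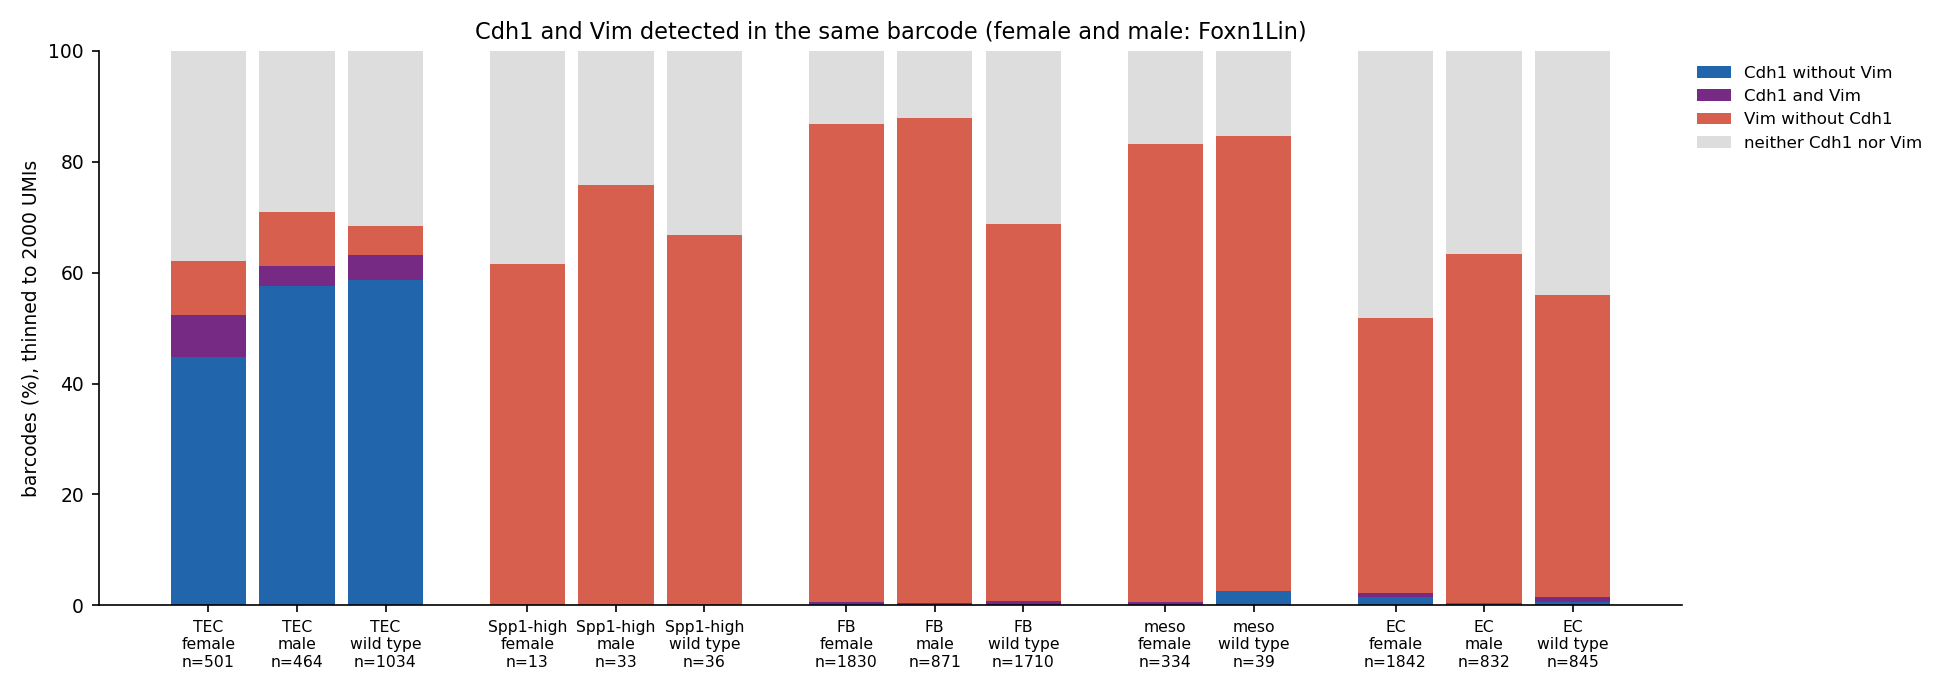
Percent of barcodes, thinned to 2000 UMIs, with Cdh1 alone, with both Cdh1 and Vim, with Vim alone and with neither, by class and library (meso, mesothelial cells; n, thinned barcodes). Cdh1 alone fills 44.7% to 58.7% of TEC, and both genes together reach 7.58% at most, in TEC of Foxn1Lin female.

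Whether TEC and FB, the classes at either end, were told apart by the members was tested in the same fit. FB were higher in 6 of 9 members, where 17.4% of all genes were higher, and lower in 1, where 36.4% were lower. Zeb2 rose by 5.54 ± 0.28 (edgeR adjusted p = 5.83e-08), Twist1 by 5.60 ± 0.51 (4.15e-06), Twist2 by 5.38 ± 0.51 (3.44e-06), Vim by 3.76 ± 0.26 (3.45e-07), Zeb1 by 3.24 ± 0.26 (1.03e-06) and Pdpn by 1.61 ± 0.51 (0.0195), and Cdh1 fell by 7.82 ± 0.54 (6.31e-07). Twist2 rests on 10, 1 and 6 UMIs in TEC. Cdh2 (0.07 ± 0.25, 0.85) and Snai2 (0.19 ± 0.28, 0.593) did not pass, with intervals of 2 SE from -0.44 to 0.57 and from -0.36 to 0.74. The Pdpn call was lost without the wild-type library (2.09, 0.0539). Of the epithelial list 21 of 22 genes were lower in FB and 0 higher (median -6.21, all genes -0.33), of the mesenchymal list 19 of 24 were higher and 3 lower (median 3.43), and of the further regulators 7 of 18 were higher and 3 lower (median 0.45). The 3 lower mesenchymal genes became 0 without Foxn1Lin male or without wild type, and the 3 lower regulators became 1 without wild type.

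Mesothelial cells, a lining epithelium of mesodermal origin that itself makes keratins, were higher than TEC in 4 of 9 members (12.4% of all genes were higher) and lower in 3 (23.4% lower). Vim rose by 3.88 ± 0.28 (edgeR adjusted p = 1.95e-06), Zeb2 by 3.37 ± 0.28 (4.78e-06), Twist1 by 4.69 ± 0.56 (9.06e-05) and Zeb1 by 1.01 ± 0.28 (0.0152). Cdh1 fell by 7.13 ± 0.70 (2.92e-05), Snai2 by 2.02 ± 0.46 (0.00499) and Cdh2 by 1.38 ± 0.39 (0.0155). Pdpn (1.42 ± 0.59, 0.0802) and Twist2 (1.28 ± 0.89, 0.284) did not pass. This comparison rests on 2 libraries. With either left out, 1 mesothelial sum remained and the other classes gave the spread. The Cdh2 and Snai2 calls were then lost, at -1.20 and -2.60 without Foxn1Lin female and at -1.23 and -1.73 without wild type. The Zeb1 call was lost without Foxn1Lin female (0.83). After thinning all 3 were lost, Cdh2 (-1.05, 0.238), Zeb1 (0.84, 0.0634) and Snai2 (-1.56, 0.17). The TEC list, which holds 5 keratins, stood at 2132 and 1202 CPM in mesothelial cells. Of the epithelial list 20 of 22 genes were lower and 1 higher (median -3.63, all genes -0.35), of the mesenchymal list 15 of 24 were higher and 0 lower (median 2.25), and the further regulators split into 4 higher and 4 lower of 18 (median -0.26). Without wild type the 20 lower epithelial genes became 11 and the 4 lower regulators 2, and with no library block the 20 became 13. The median of the regulators turned to 0.01 without Foxn1Lin male and with raised gates.

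EC were higher than TEC in 3 of 9 members (19.8% of all genes were higher) and lower in 2 (35.2% lower). Vim rose by 3.02 ± 0.25 (edgeR adjusted p = 1.32e-06), Zeb1 by 2.85 ± 0.26 (2.50e-06) and Zeb2 by 2.59 ± 0.25 (3.53e-06). Cdh1 fell by 6.46 ± 0.51 (1.53e-06) and Pdpn by 3.84 ± 0.59 (0.000205). Cdh2 (-0.63 ± 0.26, 0.0578), Twist1 (1.03 ± 0.51, 0.108), Twist2 (1.16 ± 0.60, 0.118) and Snai2 (0.05 ± 0.28, 0.897) did not pass. Without the Foxn1Lin female library 8 members passed, and without the Pth barcodes Twist1 did. The epithelial list had 20 of 22 genes lower and 1 higher (median -5.65, all genes -0.28), the mesenchymal list 9 of 24 higher and 4 lower (median 0.80), and the further regulators 7 of 18 higher and 4 lower (median 0.39). The 4 lower mesenchymal genes became 9 without Foxn1Lin female (median 0.28) and 2 without either other library, with no library block or with no filter on low counts, and with no library block the 9 higher became 6. With the highest doublet scores removed 7 were higher and the median fell to 0.20. The comparisons against TEC share the TEC sums, and those that involve Spp1-high share its sums, so they are not independent of each other.

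Within TEC the members varied with the subtype. TEC barcodes were split by 1 gene each, into those with at least 1 UMI of Psmb11 (cortical TEC, 71, 15 and 73 barcodes), at least 5 of Ccl21a (medullary mTEC1, 40, 83 and 115), at least 1 of Aire (medullary mTEC2, 105, 60 and 183) or at least 2 of Cldn3 (a marker of age-associated aaTEC1, 69, 55 and 176). Barcodes that met 2 of these were set apart. Vim was highest in the Aire group, at 292, 569 and 226 CPM, against 83, 14.9 and 10.8 CPM in the Cldn3 group and 59.0, 8.55 and 20.8 CPM in the Psmb11 group. Pdpn had the opposite order, at 15.5, 7.77 and 23.3 CPM in the Aire group and 131, 251 and 291 CPM in the Cldn3 group, and the intervals did not overlap in any library. Cdh1 was highest in the Cldn3 group with 703, 1071 and 1122 CPM and lowest in the Aire group with 303, 256 and 371 CPM. These values carry no test.

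The transcription factors split as well. Snai2 was at 42.9, 74.1 and 53.2 CPM in the Psmb11 group and 18.6, 56.2 and 43.7 CPM in the Ccl21a group, but at 3.51, 8.74 and 7.70 CPM in the Aire group and 1.24, 2.98 and 3.07 CPM in the Cldn3 group. Zeb1 was highest in the Ccl21a group, at 101, 178 and 179 CPM, and lay at 32 to 78.9 CPM in the other 3 groups. Zeb2 stayed at or below 47.7 CPM in each of the 4 groups, and Twist1 and Twist2 at or below 6.2 CPM. Markers of blood cells moved with the Aire group: the hematopoietic list stood at 1134, 985 and 837 CPM there, against 58.4, 24.9 and 12.7 CPM in the Ccl21a group and 921, 267 and 267 CPM in the Cldn3 group, and their part in the Vim level was not tested. The FB list was lower in the Aire group (198, 73.8 and 118 CPM) than in the Ccl21a group (1088, 137 and 339 CPM) and the Psmb11 group (469, 185 and 347 CPM). The Cldn3 group had 339.6, 41.8 and 150.1 CPM, below the Aire group in Foxn1Lin male.

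**Figure D4:**
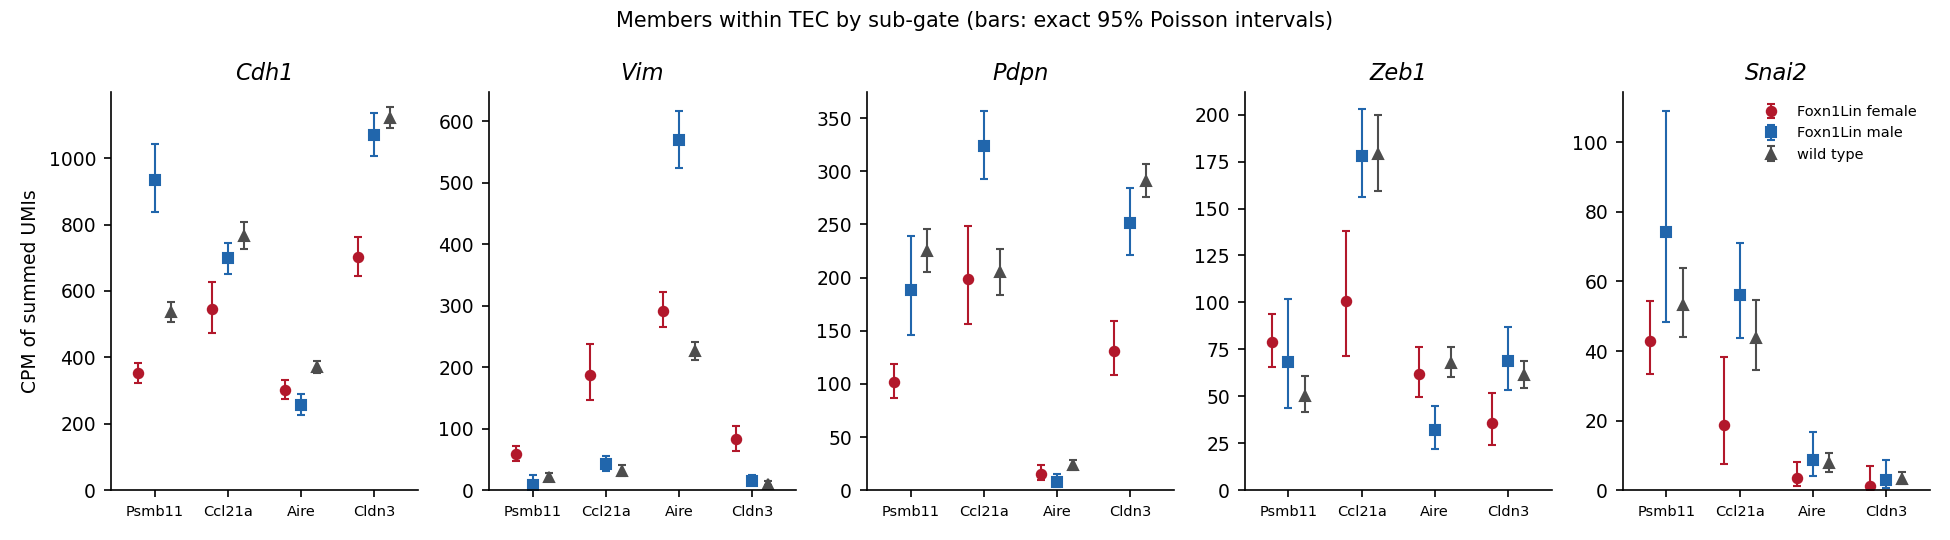
CPM of 5 members in TEC barcodes split by Psmb11, Ccl21a, Aire or Cldn3, per library, with exact 95% Poisson intervals as bars; each panel has its own axis from 0. Vim peaks in the Aire group (226 to 569 CPM), where Pdpn is lowest (7.77 to 23.3 CPM), and Snai2 is near 0 in the Cldn3 group (1.24 to 3.07 CPM).

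Within FB the Twist genes and Snai2 went different ways. FB were split into a Pi16 group (capsular, at least 2 Pi16 and at most 1 Ptn UMI, 683, 70 and 143 barcodes), a Ptn group (medullary, at least 2 Ptn and 0 Pi16 UMIs, 340, 632 and 1188) and the rest. Twist2 was at 29.1, 39.9 and 38.8 CPM in the Pi16 group and 7.27, 14.6 and 8.66 CPM in the Ptn group. Snai2 was at 9.76, 6.24 and 15.7 CPM in the Pi16 group and 34.5, 36.8 and 32.4 CPM in the Ptn group. Cdh2 followed Snai2, with 16.0, 9.99 and 10.4 CPM against 24.1, 36.0 and 34.7 CPM, though its intervals overlapped in Foxn1Lin female (13 to 19.6 and 18.0 to 31.5). Twist1 differed between the groups beyond counting error in the Foxn1Lin female library (56.7 against 98.1 CPM) and in Foxn1Lin male (116 against 153 CPM) and not in the wild type (108 against 102 CPM). Vim was higher in the Pi16 group, at 2100, 1933 and 1614 CPM against 1018, 1783 and 751 CPM. Over both groups Pdpn lay at 451 to 522 CPM, Zeb1 at 636 to 756 CPM and Zeb2 at 714 to 1027 CPM. These values carry no test.

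**Figure D5:**
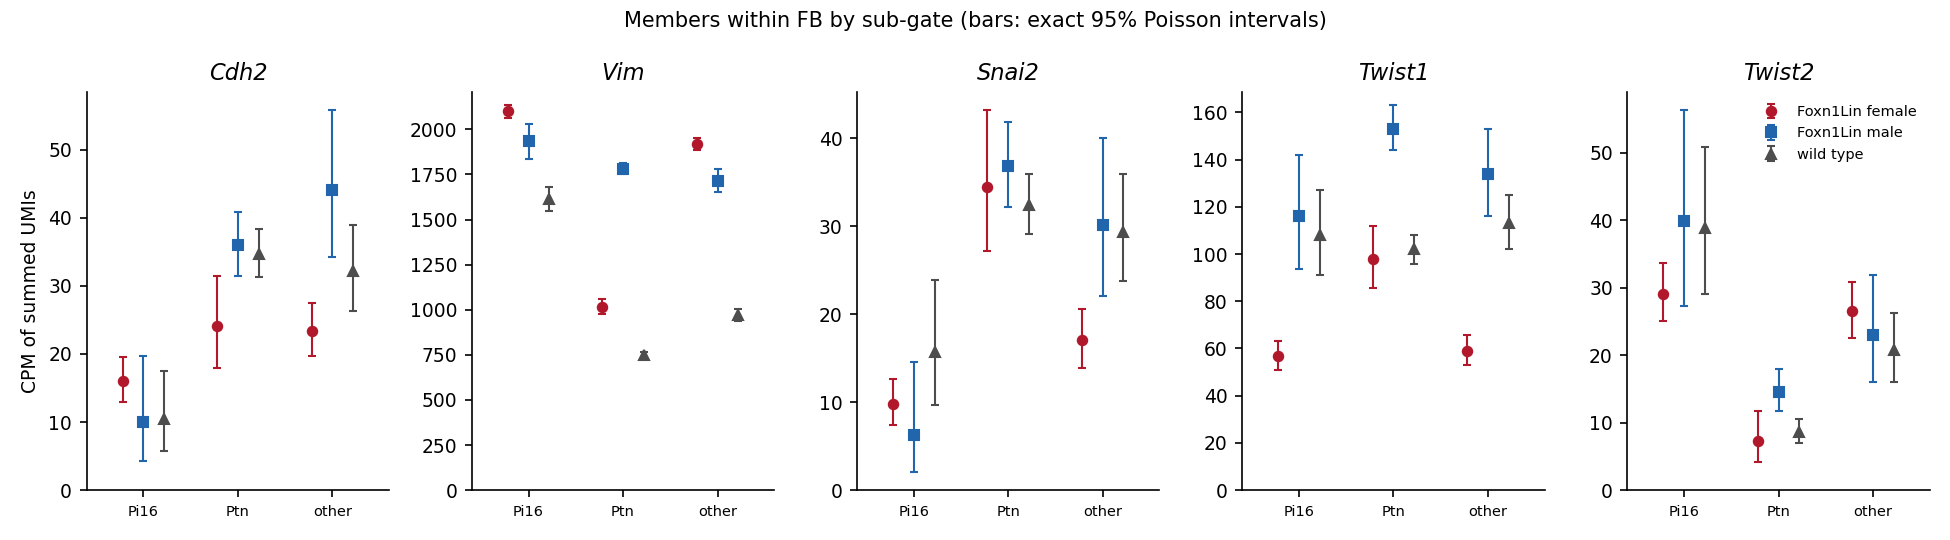
CPM of 5 members in FB barcodes split into Pi16, Ptn and remaining (other) groups, per library, with exact 95% Poisson intervals as bars; each panel has its own axis from 0. Twist2 is higher in the Pi16 group (29.1 to 39.9 CPM) and Snai2 in the Ptn group (32.4 to 36.8 CPM).

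Libraries differed within a class by sums of 1 library each, with no test. In TEC, Vim was lowest in the wild type (82.5 CPM, interval 78.9 to 86.2) and Pdpn and Cdh1 were lowest in Foxn1Lin female, which had the most RNA outside called barcodes. In FB, Vim of the wild type (871 CPM) was under that of Foxn1Lin female (1857 CPM) and Foxn1Lin male (1785 CPM), and the wild type was lowest in each of the 3 FB groups. The Ptn group made up most FB of the wild type and of Foxn1Lin male and fewer of Foxn1Lin female, so the mix of FB moved with the library. In the 2 Foxn1Lin libraries the Spp1-high barcodes with a reporter UMI had Zeb2 at 1250 and 791 CPM, Vim at 838 and 993 CPM and 0 Cdh1 UMIs. The single Cdh1 UMI of Foxn1Lin female lay in 1 of the 2 barcodes without the reporter.

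The genes whose levels ran most like a member's over the 14 class and library sums were looked up by Pearson correlation of log2(CPM + 1), as a description with no p. The sums share libraries, and the 5 classes alone set most of the spread. For Cdh1 they were Esrp1 (0.976), an epithelial splicing factor, Fermt1 (0.974), Skint1 (0.967), Trim29 (0.967) and Fcgbp (0.960). For Vim they were St3gal1 (0.966), Phldb1 (0.963), Tspan4 (0.939), Ctsb (0.936) and St6galnac6 (0.935). Pdpn ran most like Cdh11 (0.969), a mesenchymal cadherin, Nupr1 (0.966), Naaladl2 (0.966), Ptges (0.965) and Bmpr1a (0.965). Twist2 ran most like Svep1 (0.976), Col6a6 (0.924), Ctsk (0.920), Pi15 (0.905) and Fgf10 (0.905).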

How the data were processed

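Single-cell libraries were made by the authors with 10x Genomics 3′ chemistry. The deposited values are raw UMI counts for each gene in each barcode, produced by the authors with Cell Ranger (version 7.01 in the submitters' processing notes) on mm10 (GRCm38) with reporter sequences added. The counts were not normalized. Feature and barcode lists were used for names only, and the library summaries were not used. Gene positions are from GENCODE vM21 on GRCm38, and promoter sequences from RefSeq on GRCm38.p6.

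Among called barcodes, those showing at most 1000 genes and also a mitochondrial share of at least 20% were left out (138, 149 and 222). Classes were set by the gates in the text. Doublets were not removed in the main analysis, and leaving out the highest Scrublet scores (scanpy 1.11.5), up to the multiplet rate of 3.9% in the labels, was an alternative. CPM is summed UMIs of a gene per 1000000 UMIs of the class. Intervals are exact Poisson or Clopper-Pearson at 95%, a ratio between classes of 1 library has an interval from the exact binomial, and a count of 0 allows 3 counts (scipy 1.17.1). Shares were read after seeded thinning to 2000 UMIs, which left out 13, 18 and 22 shallower TEC barcodes and 1 Spp1-high barcode.

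Sums of at least 10 barcodes were fitted by edgeR 4.0.16 in R 4.3.3 (filterByExpr, TMM, robust glmQLFit) with class and library as terms, 14 sums in all and 1 estimate of spread, with Benjamini-Hochberg adjustment over all genes at 0.05. SE is the log2 fold change divided by the square root of F. With 1 library per group, p-values measure the spread of class differences over 3 libraries. The edgeR fit was also run on simulated counts with known changes, whose outcome is not given here and backs no result. Alternatives were RLE scaling, no filter on low counts, DESeq2 1.42.0, no library block, each library left out, no barcode filter, doublets removed, gates raised by 1 UMI, Spp1 at least 20 UMIs, thinning before summing and, added after seeing the data, TEC without Pth barcodes. Named genes were the 10 members and, per list, the 4 with the largest change among those past the threshold in each direction. The members and lists were chosen with earlier results of these data known.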

Additional observations from a re-analysis of the deposited data

Results flagged for a closer look

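Snai2 went opposite ways between FB and TEC in different libraries. Its CPM ratio of FB to TEC was 0.803 (95% interval 0.654 to 0.988 from the counts) in Foxn1Lin female and 1.5 (1.31 to 1.70) in the wild type, with 0.961 (0.813 to 1.14) in Foxn1Lin male. The difference between the libraries was not tested, because each group holds 1 library, and sex, genotype and run cannot be told apart. The Ptn group, in which Snai2 was highest, was 340 of 1862 FB barcodes in Foxn1Lin female, 632 of 874 in Foxn1Lin male and 1188 of 1732 in the wild type. Foxn1Lin male thus had a large Ptn group without the higher ratio. The level in TEC differed too, at 20.8, 34.1 and 20.3 CPM in the same order. The part of either in the difference was not tested.

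Barcodes in no class, which no comparison used, held Cdh1 above the level of every class other than TEC. There were 93, 39 and 107 such barcodes with at least 2 Cdh1 UMIs in Foxn1Lin female, Foxn1Lin male and the wild type. They were chosen by Cdh1 and lie outside the TEC gate, so their Cdh1 (554, 1171 and 690 CPM) and their Epcam (65.5, 91.2 and 58.4 CPM, at most 1 UMI a barcode) were set by the choice and are descriptions. H2-Aa was at 1683, 613 and 1934 CPM, Vim at 122, 20.3 and 57.3 CPM and Zeb2 at 68.4, 5.07 and 41.1 CPM. Their median depth was 5380, 4977 and 6727 UMIs, against 11758, 13526 and 17994 UMIs in TEC.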

How the results depend on the processing

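Over 13 alternatives, all 29 called differences of the 9 members kept their direction in the 5 comparisons and 18 kept their call. Of the 16 that were not called, 7 passed the threshold in 1 or more alternatives. Of 650 log2 fold changes recomputed, Epcam included, 589 kept direction and call, 32 lost the call, 13 gained it and 16 turned sign, none of them called. Epcam sets the gates, so its values in this tally were bound by the choice of barcodes and are no test. The number of members past the threshold against TEC was 6 for Spp1-high and fell to 3 after thinning. Leaving out 1 library gave 3 to 7 members for Spp1-high against TEC, 1 to 3 against FB and 5 to 8 for EC against TEC. The fit without the library block gave 6, 3, 7, 7 and 5 members, against 6, 4, 7, 7 and 5 with it. Classes were thus paired within libraries, and the groups themselves, with 1 library each, could not be paired.

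The sign turned for Twist2 in Spp1-high against TEC without the highest doublet scores (-4.32), with Spp1 at least 20 (-4.51), after thinning (-1.83) and without wild type (-4.78), and in mesothelial cells without Foxn1Lin female (-3.67). Against FB it turned for Cdh1 with RLE (0.10), DESeq2 (0.24), doublets removed (0.11), raised gates (0.16), without Foxn1Lin male (0.28) and without wild type (0.38), for Zeb2 with RLE (0.11), DESeq2 (0.11) and without Foxn1Lin male (0.07) and for Epcam without Foxn1Lin male (0.31). Snai2 against TEC turned without Foxn1Lin male (0.21). With 1 library left out at a time these values ran from -4.78 to 3.84 for Twist2 and from -1.60 to 0.21 for Snai2 against TEC, and against FB from -8.09 to 0.31 for Epcam, from -0.82 to 0.38 for Cdh1 and from -0.18 to 0.07 for Zeb2. Twist2, Cdh1 and Epcam rest on 2 Spp1-high UMIs each, and the gate capped Epcam in that class, so its values are a description. For the others the cause was not tested. With Spp1 at least 20, Spp1-high fell to 8 barcodes in Foxn1Lin female, all with a reporter UMI, and that sum was left out of the fit. Without thinning, 108 of 140 shares of barcodes with a UMI left their intervals. The count of genes called differed by over 1.5 times in some fits: for Spp1-high against TEC, 3420 genes became 1157 after thinning, 1209 without Foxn1Lin male, 745 without wild type and 2252 with Spp1 at least 20, and against FB 1439 became 862, 381 and 286 in the first 3 of these. For mesothelial cells 6416 became 3335 after thinning, 2992 without Foxn1Lin female and 3524 without wild type, for FB 9672 became 5938 and for EC 9866 became 6315 after thinning. In Spp1-high, Cdh1, Cdh2, Twist2 and Snai2 rest on 9 UMIs or fewer, which limits the precision of their values.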
